A study of Mus musculus with 7 samples.

Results

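The pyruvate dehydrogenase kinases Pdk1, Pdk2, Pdk3 and Pdk4 and the opposing phosphatases Pdp1 and Pdp2 were taken by gene symbol from RNA sequencing of mouse CD8 T cells. Of these 6 genes, 5 matched a row among the 16156 genes of the deposited tables. Pdk4 is not analysed here. The family was picked because Pdk1 was higher in the libraries labelled ACLY KO, so its genotype difference is given as a description without a test. ACLY, ATP-citrate lyase, splits cytosolic citrate into acetyl-CoA and oxaloacetate.

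The cells were OT-I CD8 T cells, which carry a transgenic receptor for an ovalbumin peptide, and they bore a congenic mark that tells them from host cells. The donor cells were WT (4 libraries) or ACLY KO (3 libraries), both of the C57Bl/6 strain. C57Bl/6 hosts received them 1 day ahead of an infection with LmOVA, a Listeria monocytogenes strain that makes ovalbumin. The transferred cells were isolated 6 days after infection, so donor cells of both genotypes had been through the same infection, and no library came from an uninfected mouse. The labels do not give the age or sex of the mice, the way in which Acly was deleted, or whether each library came from its own mouse or from a pool. The p-values therefore measure only the spread between these libraries, which may be technical. In bulk RNA, fewer cells of a type and less RNA per cell cannot be told apart. Below, WT1 to WT4 and KO1 to KO3 are the replicates of the 2 groups.

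Pyruvate dehydrogenase is the mitochondrial complex that turns pyruvate into acetyl-CoA, which condenses with oxaloacetate to form the citrate that ACLY later cleaves. The kinases phosphorylate serines of the E1 alpha subunit and switch the complex off, and the phosphatases remove the phosphates and switch it on again. In many cells PDK1 is induced by HIF-1 under low oxygen, PDK4 is induced by FOXO and PPAR factors on fasting or fat use, PDK2 is widely expressed and strongly inhibited by pyruvate, and PDK3 is another HIF-1 target. PDP1 is stimulated by calcium, and PDP2 responds to insulin. In T cells, activation raises glycolysis and lactate output, and kinase activity is one of the switches that decide how much pyruvate is oxidised. These enzymes act on protein, and the libraries measure only their transcripts. Pdk1 is a different gene from Pdpk1, whose product is also called PDK1 in the insulin signalling field.

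The stretch of 250 bases before the annotated start is shown for the 3 kinases, because HIF-1 and FOXO factors, known regulators of this family in some cells, read short DNA words, and because the 3 kinases had different profiles over the libraries. The sequences are from RefSeq (GRCm38.p6, the same assembly as mm10), 5′ to 3′ on the gene's own strand. RefSeq held 2 windows each for Pdk1 and Pdk2. The window nearest the gene start in the GENCODE annotation was taken, and the other is not reported. Capitals mark the hypoxia response cores ACGTG and GCGTG on either strand, with the whole E-box CACGTG in capitals where ACGTG lies inside it. Pdk1 is at chr2:71872974-71873223 on the plus strand, Pdk2 at chr11:95041372-95041621 on the minus strand, and Pdk3 at chrX:93832151-93832400 on the minus strand.
Pdk1: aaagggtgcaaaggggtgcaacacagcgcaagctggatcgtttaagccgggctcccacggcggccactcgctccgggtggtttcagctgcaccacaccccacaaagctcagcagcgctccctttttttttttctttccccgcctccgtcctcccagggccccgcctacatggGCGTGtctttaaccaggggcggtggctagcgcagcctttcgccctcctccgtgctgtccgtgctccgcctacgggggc
Pdk2: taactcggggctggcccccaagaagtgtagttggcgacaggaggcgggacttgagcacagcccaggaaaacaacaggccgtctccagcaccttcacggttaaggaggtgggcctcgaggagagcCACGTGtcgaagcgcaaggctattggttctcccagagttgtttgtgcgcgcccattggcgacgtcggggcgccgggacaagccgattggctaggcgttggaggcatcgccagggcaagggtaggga
Pdk3: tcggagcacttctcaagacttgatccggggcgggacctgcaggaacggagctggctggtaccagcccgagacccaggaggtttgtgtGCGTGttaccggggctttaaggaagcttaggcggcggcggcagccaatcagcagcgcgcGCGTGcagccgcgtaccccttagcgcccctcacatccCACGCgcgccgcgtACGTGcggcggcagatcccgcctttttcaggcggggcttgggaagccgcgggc

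The Pdk1 window held 1 core, GCGTG, at 78 to 74 bases before the start. Pdk2 held 1 CACGTG, which counts as ACGTG on both strands. Pdk3 held 3 GCGTG and 1 ACGTG. A RefSeq window was also matched for Pdp2 (chr8:104591222-104591471, plus strand), which held 1 CACGTG, and none was matched for Pdp1. The FOXO word GTAAACA was in none of the 4 windows searched. Among 32851 RefSeq promoters of the same length, 38.6% held at least 1 of the 2 cores, 16.7% held at least 2 matches and 2.6% held at least 4. CACGTG was in 6.0% and GTAAACA in 3.2%. These matches are letters in a window and say nothing about binding in these cells.

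The libraries held 37473484 to 39692359 counts in genes for KO and 45288353 to 75586011 for WT, so the 3 KO libraries were below every WT library. Acly itself was at 393, 339, 414 and 276 CPM (counts scaled to a common library total) in WT1 to WT4 and at 262, 62.0 and 209 in KO1 to KO3. All KO libraries lay below all WT libraries, by 1.0 on the log2 scale (SE 0.44, edgeR adjusted p = 0.278). The adjusted p was 0.129 with DESeq2 and 0.0449 with limma voom. Transcript of the targeted gene remained in every KO library. Markers of other cells were present in the KO libraries. The sum of 11 B cell markers, led by Ighm and Ighd, was 245 to 683 CPM in WT and 10741, 1164 and 661 CPM in KO1, KO2 and KO3, and 4 of the 11 (Ms4a1, Pax5, Fcer2a and Blk) were at 0 in at least 1 WT library. The sum of 10 macrophage and monocyte markers was 37.7 to 56.1 CPM in WT and 1206, 65.0 and 977 in KO1, KO2 and KO3. Over all libraries Lyz2 and Csf1r were highest, and Cd14 was at 0 in WT4. Of the 10, 6 were above every WT library in all KO libraries. Itgam went the other way, with means of 19.4 CPM in WT and 9.56 CPM in KO. Cd68 was at 7.10 CPM in KO2, below its WT range of 11.1 to 17.9 CPM. The 7 red cell genes, with Hbb-bs and Hba-a1 highest, summed to 1.48 to 475 CPM in WT and to 47284, 6566 and 238 in the KO libraries, with Slc4a1 at 0 in WT3. The 3 measured of 6 neutrophil genes, S100a8, S100a9 and Csf3r, each at 0 in some WT library, summed to at most 0.322 CPM in WT and to 335, 21.5 and 8.96 in the KO libraries. The 2 measured of 5 dendritic cell genes, Xcr1 and Zbtb46, summed to 11.3 to 14.0 CPM in WT. In KO1, KO2 and KO3 they summed to 41.0, 4.07 and 13.1 CPM. The 3 measured of 4 CD4 T cell genes, with Zbtb7b and Cd4 highest, summed to 9.29 to 34.1 CPM in WT. Their sums in KO1, KO2 and KO3 were 186, 9.22 and 27.6 CPM. Both lists were thus above the WT range in KO1 alone, and Cd4 was at 0 in WT1 and WT3. The 7 CD8 T cell markers, led by Cd8b1 and Cd3e, were present in all libraries, at 5624 to 7211 CPM in WT and 2438, 5815 and 5779 in KO1, KO2 and KO3. Of these 7, Cd3d, Cd3e, Cd3g and Cd5 were below every WT library in all 3 KO libraries, and Cd8a, Cd8b1 and Cd2 overlapped. Cd5 had the smallest p of them, with a log2 difference of -0.75 (SE 0.19, edgeR adjusted p = 0.109, DESeq2 adjusted p = 0.0131, limma voom adjusted p = 0.0437). All 7 were lowest in KO1. The Trbv12 beta chain segments used by the OT-I receptor made up 84.5% to 99.2% of the beta segment counts in WT and 46.7%, 23.2% and 61.8% in KO1, KO2 and KO3. The part these transcripts play in the results below was not tested, and the levels by KO library are given beside each member.

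Pdk1, the gene for which the family was picked, was higher in every KO library than in any WT library. Of the 4 other measured members, Pdk2 alone had every KO library above every WT library, and Pdk3, Pdp1 and Pdp2 overlapped between the genotypes. Over all genes, 9.46% had every KO library above every WT library and 9.03% had every KO library below. With edgeR's quasi-likelihood test and Benjamini-Hochberg adjustment over 16156 genes, 0 genes passed an adjusted p of 0.05 (0%), although 18.8% had an unadjusted p under 0.05 (11.0% higher in KO and 7.89% lower). DESeq2 called 10.7% of 14534 genes (7.13% higher and 3.61% lower), and limma voom called 7.01% of 16156 genes (5.32% higher and 1.68% lower). None of the 4 members that were tested passed with edgeR.

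Pdk1 lies on chromosome 2 at 71873224 to 71903858 (mm10, plus strand) and has 13 exon blocks. Its level was 122, 111, 119 and 86.3 CPM in WT1 to WT4 and 146, 389 and 229 CPM in KO1 to KO3. These values rest on 4944 to 16727 counts per library. The lowest KO library, KO1, was above the highest WT library, WT1, and the KO libraries were far apart from each other. The means were 110 ± 16.2 CPM in WT (SD, n = 4) and 255 ± 124 CPM in KO (SD, n = 3), a fitted difference of 1.22 on the log2 scale (SE 0.31), or 2.32-fold. Against the WT mean, KO1 stood at 1.33-fold, KO2 at 3.55-fold and KO3 at 2.09-fold. Without KO2 the log2 difference was 0.77. KO2 was the library with the lowest Acly and the lowest share of Trbv12 segments, and KO1 was the library with the most B cell, red cell and neutrophil transcripts.

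Pdk2, the isoform best known for its inhibition by pyruvate, lies on chromosome 11 at 95026258 to 95041354 (minus strand, 12 exon blocks). It was measured at 6.46, 6.26, 7.62 and 3.17 CPM in WT1 to WT4 and at 18.4, 13.5 and 11.3 CPM in KO1 to KO3, from 187 to 687 counts. Every KO library was above every WT library, and WT4 was the lowest of all. The means were 5.88 ± 1.90 CPM (SD, n = 4) and 14.4 ± 3.62 CPM (SD, n = 3), a difference of 1.29 on the log2 scale (SE 0.36) or 2.45-fold. That difference did not pass with edgeR (adjusted p = 0.127). It passed with the other tools, at 1.31 with DESeq2 (adjusted p = 0.00729) and 1.09 with limma voom and quality weights (adjusted p = 0.0445). Within KO, Pdk2 was highest in KO1, where Pdk1 was lowest; KO1 was the library with the largest marker sums for B cells, macrophages and red cells. With KO1 left out the log2 difference of Pdk2 was 1.08, and with both KO1 and WT4 left out it was 0.89.

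Pdk3, carried on the X chromosome at 93764607 to 93832201 (minus strand, 12 exon blocks), encodes the isoform with the highest specific activity in textbook comparisons of the family. Its level was 44.7, 40.7, 43.4 and 82.3 CPM in WT1 to WT4 and 47.2, 34.8 and 45.2 CPM in KO1 to KO3. WT4 stood far above the other 6 libraries, and WT1 to WT3 lay within the range of the KO libraries. The log2 difference was -0.32 (SE 0.28, edgeR adjusted p = 0.603), with means of 52.8 ± 19.8 CPM in WT (SD, n = 4) and 42.4 ± 6.66 CPM in KO (SD, n = 3). Without WT4 it was -0.02. Pdk3 therefore had no difference beyond the spread between libraries, in contrast to the non-overlapping groups of Pdk1 and Pdk2.

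**Figure D1:**
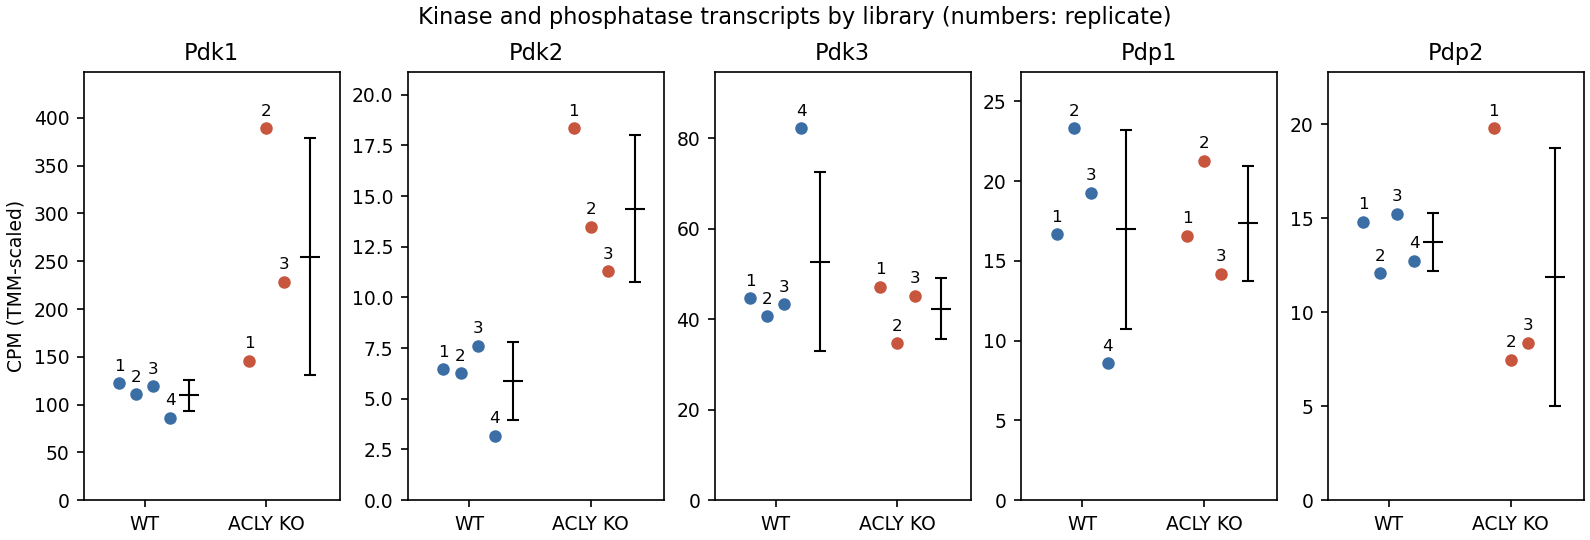
CPM (TMM-scaled, linear axis from 0) of the 5 measured genes in each library, 1 panel per gene, with the replicate number over each point and the mean ± SD of the group as a black bar beside it. The KO points of Pdk1 and Pdk2 lie above all WT points, Pdk3 of WT4 stands at 82.3 CPM above the rest, and Pdp1 and Pdp2 overlap.

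Both phosphatase catalytic subunits were measured at lower levels than Pdk1 and Pdk3. Pdp1, the calcium-stimulated one, lies on chromosome 4 at 11958184 to 11966452 (minus strand). It was at 16.7, 23.3, 19.3 and 8.60 CPM in WT1 to WT4 and at 16.6, 21.3 and 14.2 CPM in KO1 to KO3. The 3 KO libraries fell inside the WT range, and WT4 was the lowest library of all. The difference was 0.03 on the log2 scale (SE 0.35, edgeR adjusted p = 0.971), with means of 17.0 ± 6.22 CPM (SD, n = 4) and 17.4 ± 3.61 CPM (SD, n = 3). Without WT4 it was -0.19 and without KO2 -0.14, so its sign rested on single libraries.

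Pdp2, on chromosome 8 at 104591451 to 104599026 (plus strand), encodes the phosphatase that responds to insulin. Its level was 14.8, 12.1, 15.2 and 12.8 CPM in WT1 to WT4 and 19.8, 7.47 and 8.37 CPM in KO1 to KO3. The KO libraries split around the narrow WT range, with KO1 above all WT libraries and KO2 and KO3 below them. The log2 difference was -0.21 (SE 0.38, edgeR adjusted p = 0.815). Without KO1 it was -0.79, and without KO2 it was 0.04, so the direction depended on which KO libraries were counted. KO1 was again the library with the highest marker sums of other cells.

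Pdpr, the regulatory subunit that lowers the activity of the PDP1 holoenzyme, was at 24.3, 20.4, 25.8 and 19.2 CPM in WT1 to WT4 and at 21.5, 11.9 and 11.8 CPM in KO1 to KO3. KO2 and KO3 were below every WT library and KO1 was within the WT range. The difference was -0.57 on the log2 scale (SE 0.28, edgeR adjusted p = 0.325). Pdpr shares 169 bases of exon with a gene on the opposite strand, and the strand setting of the counting is not given in the sources used here, so reads of that stretch cannot be assigned to one of them. The 5 measured family members share no exon bases with another measured gene.

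Between genes, levels were compared as CPM per kb of exon, which allows for gene length. In WT the order of mean levels was Pdk3 at 20.6 ± 7.71, Pdk1 at 14.1 ± 2.09, Pdp1 at 3.77 ± 1.38, Pdp2 at 2.41 ± 0.272 and Pdk2 at 1.86 ± 0.601 CPM per kb (SD, n = 4). In KO it was Pdk1 at 32.7 ± 15.9, Pdk3 at 16.5 ± 2.60, Pdk2 at 4.54 ± 1.14, Pdp1 at 3.85 ± 0.802 and Pdp2 at 2.09 ± 1.21 CPM per kb (SD, n = 3). Of the neighbours in these orders, Pdk1 and Pdp1 in WT and Pdk3 and Pdk2 in KO lay further apart than the sum of their SDs, and the other neighbours did not. Among all genes with a length, Pdk1 stood at percentile 74.6 of CPM per kb in WT and 88.9 in KO, and Pdk2 at 39.5 and 51.5. Pdk3 stood at percentile 81.2 in WT and 77.5 in KO, Pdp1 at 50.0 and 48.0, and Pdp2 at 43.2 and 38.1.

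Pdk3 exceeded Pdk1 per kb in 4 of 4 WT libraries, and Pdk1 exceeded Pdk3 in 3 of 3 KO libraries, when length was the union of all annotated exons. The Pdk1 to Pdk3 ratio was then 0.899, 0.898, 0.904 and 0.345 in WT1 to WT4 and 1.02, 3.69 and 1.67 in KO1 to KO3. With the longest transcript as length, the WT ratios became 1.11, 1.11, 1.12 and 0.428 and the KO ratios 1.26, 4.57 and 2.07. Which of these kinases was the more abundant in WT1 to WT3 therefore depended on the exon model. All KO ratios were above all WT ratios. A change of length scales the ratio alike in every library, so it could not alter that order. The ratio also holds Pdk1, which chose the family, and it is given without a test.

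Within the kinase transcripts of a library, Pdk3 took a smaller share in KO. It made up 49.6%, 49.4%, 48.9% and 72.6% of kinase CPM per kb in WT1 to WT4 and 42.8%, 20.0% and 34.8% in KO1 to KO3, so its share was lower in every KO library although its own level overlapped. Pdk1 made up 44.6%, 44.4%, 44.2% and 25.1% in WT1 to WT4 and 43.7%, 73.7% and 58.1% in KO1 to KO3, with KO1 inside the WT range. In KO1 the share of Pdk2 was 13.5%, against 2.27% to 6.95% in WT and 6.28% and 7.05% in KO2 and KO3. These shares hold Pdk1, which chose the family, and they are given without a test.

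The summed kinase level was 35.2, 32.1, 34.7 and 44.2 CPM per kb in WT1 to WT4 and 43.0, 67.9 and 50.6 in KO1 to KO3, with KO1 just below WT4. The summed phosphatase level was 6.31, 7.30, 6.96 and 4.15 CPM per kb in WT and 7.15, 6.04 and 4.62 in KO. The ratio of kinase to phosphatase transcripts was 5.58, 4.40, 4.98 and 10.7 in WT1 to WT4 and 6.01, 11.2 and 11.0 in KO1 to KO3. KO2, KO3 and WT4 were high and the remaining 4 libraries low, so the genotypes overlapped (6.41 ± 2.88 in WT, SD, n = 4, and 9.40 ± 2.94 in KO, SD, n = 3). Pdp1 supplied 46.0% to 70.9% of the phosphatase level in WT and 51.4% to 78.3% in KO.

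**Figure D2:**
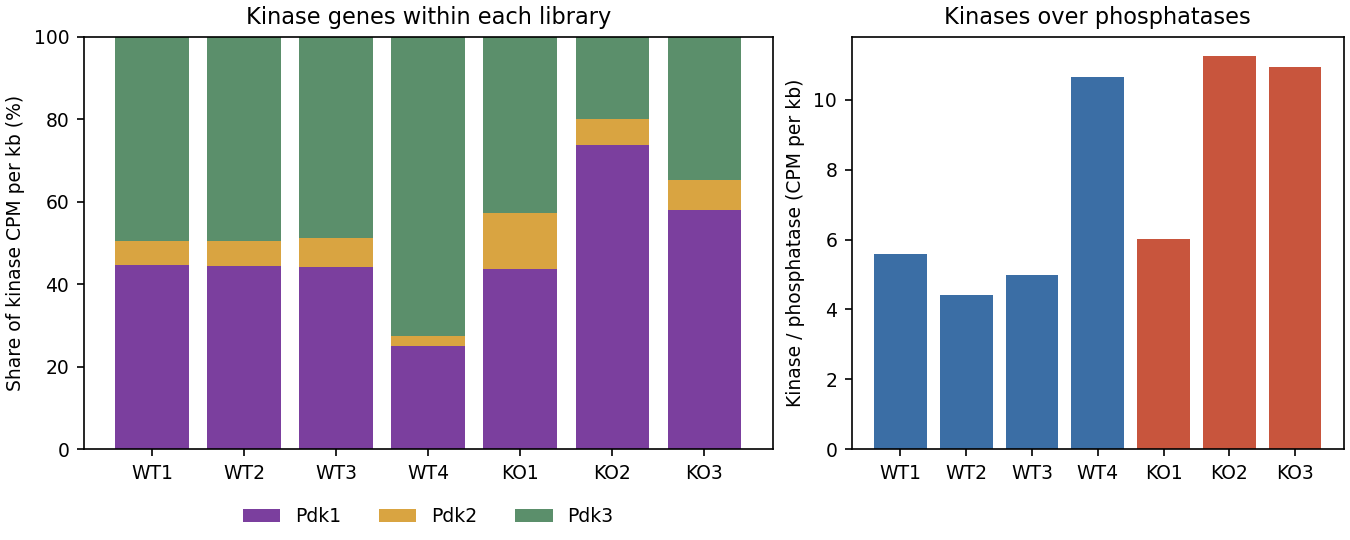
Left, percent of kinase CPM per kb from Pdk1, Pdk2 and Pdk3 in each library, as stacked bars that add to 100. Right, kinase over phosphatase CPM per kb in each library, WT in blue and KO in red, on a linear axis from 0. Pdk3 supplies less of the bar in every KO library (20.0% to 42.8%) than in any WT library (48.9% to 72.6%), and the ratio is near 11 in WT4, KO2 and KO3.

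WT4 lay above the range of WT1 to WT3 for Pdk3, below it for Pdk1, Pdk2 and Pdp1, and inside it for Pdp2. Relative to the mean of WT1 to WT3 it held 1.92 times the Pdk3 transcript, 0.735 times Pdk1, 0.908 times Pdp2, 0.468 times Pdk2 and 0.435 times Pdp1. The other 3 WT libraries were close together, at 111 to 122 CPM for Pdk1 and 40.7 to 44.7 CPM for Pdk3, with coefficients of variation of 4.93% and 4.78%. Among the KO libraries the widest spreads were those of Pdk1 and Pdp2, whose highest library held 2.67 and 2.65 times the lowest, and the narrowest was that of Pdk3 at 1.36 times. WT4 was also the WT library with the lowest Trbv12 share.

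The genes of the pathway around the kinases were read from 6 lists chosen by function, of which 81 of 88 genes were measured. With edgeR 0 of the 81 passed an adjusted p of 0.05. The median log2 difference over all genes was -0.00, with 8077 genes above and 8079 below 0. Genes are named where they had the smallest p-values of a list or, chosen after their values were seen, where a tool called them or their groups did not overlap.

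The substrate of the kinases, the pyruvate dehydrogenase complex, comprises Pdha1 and Pdhb (E1), Dlat (E2), Dld (E3) and Pdhx (the E3 binding protein). All 5 genes had log2 differences below 0, between -0.28 and -0.16, with a median of -0.22, and the groups overlapped for each. Dld was at 120, 137, 110 and 145 CPM in WT1 to WT4 and at 102, 115 and 99.5 CPM in KO1 to KO3, a difference of -0.28 (SE 0.14, edgeR adjusted p = 0.322). Pdhb was at 161, 188, 153 and 142 CPM in WT and at 129, 148 and 123 CPM in KO, a difference of -0.27 (SE 0.14, edgeR adjusted p = 0.348). None of the 5 genes had an unadjusted p under 0.05, and DESeq2 and limma voom called 0 of them.

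Genes that supply the complex with lipoate and thiamine pyrophosphate (6 of 6 measured) had a median of 0.28, with 4 above and 2 below 0. Lipt1, which transfers lipoate to the E2 subunits, was the only one of them whose groups did not overlap, at a mean of 2.44 CPM in WT and 4.11 CPM in KO (log2 difference 0.75, SE 0.31, edgeR adjusted p = 0.253).

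Of 11 measured genes for pyruvate transport and competing pyruvate enzymes, 4 lay above and 7 below 0, with a median of -0.25, and 3 had every KO library below every WT library, beside 9.03% of all genes. Me2, the mitochondrial malic enzyme that makes pyruvate from malate, was at 302, 281, 297 and 329 CPM in WT1 to WT4 and at 204, 201 and 225 CPM in KO1 to KO3. Both groups were tight and far apart, and the difference of -0.53 (SE 0.12) had an edgeR adjusted p of 0.0832 and was called by DESeq2 and limma voom. Mpc1, a subunit of the mitochondrial pyruvate carrier, had means of 21.8 and 14.1 CPM (-0.63, SE 0.22, edgeR adjusted p = 0.190), and Pkm, which makes pyruvate from phosphoenolpyruvate, 582 and 489 CPM (-0.25, edgeR adjusted p = 0.410). Ldhb, a lactate dehydrogenase subunit, was called by limma voom alone and its groups overlapped.

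The branched-chain ketoacid dehydrogenase is built like pyruvate dehydrogenase and has a kinase, Bckdk, and a phosphatase, Ppm1k, of its own. Of its 5 listed genes 4 lay above 0, with a median of 0.14. Bckdhb was at 3.17, 3.97, 3.63 and 7.38 CPM in WT1 to WT4 and at 8.47, 8.78 and 7.42 CPM in KO1 to KO3, so KO3 lay just above WT4 (0.86, SE 0.36, edgeR adjusted p = 0.262; called by limma voom). Bckdha, the partner subunit, went the other way, at means of 11.6 and 8.42 CPM (-0.46, SE 0.25, edgeR adjusted p = 0.367), again without overlap. Ppm1k had means of 20.0 and 25.1 CPM without overlap (0.32, edgeR adjusted p = 0.419), and Bckdk had 71.8 and 79.0 CPM with overlap.

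Among 31 measured genes of the HIF-1 and hypoxia response, 15 lay above and 16 below 0, with a median of -0.00, as for all genes. DESeq2 called 4 of the 31, Bnip3 and Pfkfb4 higher and Ero1a and Higd1a lower, which is near its 10.7% of all genes. Ero1a, an endoplasmic reticulum oxidase, was at 61.7, 58.0, 58.8 and 53.1 CPM in WT1 to WT4 and at 43.9, 31.1 and 27.7 CPM in KO1 to KO3 (-0.76, SE 0.18, edgeR adjusted p = 0.0983). Bnip3, a mitophagy receptor, was at 1.65, 2.06, 1.67 and 0.966 CPM in WT1 to WT4 and at 5.80, 4.03 and 3.40 CPM in KO1 to KO3 (1.47, SE 0.40, edgeR adjusted p = 0.120). These HIF-1 targets lay on opposite sides with no overlap between the groups, and Bnip3 was highest in KO1. Higd1a, a respiratory chain assembly factor, had means of 78.3 and 47.4 CPM without overlap (edgeR adjusted p = 0.127), whereas Pfkfb4, a regulator of fructose 2,6-bisphosphate, was at 26.0 CPM in KO1 and at 3.05 and 5.60 CPM in KO2 and KO3, overlapping a WT range of 1.08 to 3.48 CPM. Hif1a itself overlapped between the groups.

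Of 23 measured FOXO and PPAR regulators and targets, 15 lay above and 8 below 0, with a median of 0.10, and 4 had every KO library above every WT library. That is 4 of 23 against 9.46% of all genes. Among them Irs2, an adaptor of insulin signalling, had means of 13.1 and 90.0 CPM (2.78, SE 0.58, edgeR adjusted p = 0.0776). Sesn1, a stress-induced inhibitor of mTORC1 signalling (0.64, edgeR adjusted p = 0.102), and Foxo1 (0.88, edgeR adjusted p = 0.135) were also without overlap. Foxo1 was at 177, 144, 203 and 235 CPM in WT1 to WT4 and at 238, 463 and 345 CPM in KO1 to KO3. Like Pdk1 it was lowest among the KO libraries in KO1, where it was barely above WT4, and highest in KO2. DESeq2 called 5 of the 23, among them Irs2, Sesn1, Foxo1 and Pparg, all higher, beside 7.13% of all genes called higher by that tool. Of these named genes Pparg overlapped between the groups. Among the genes named in these lists, Lipt1, Mpc1, Pkm, Bckdha, Higd1a, Hif1a and Pdha1 share exon bases with another measured gene, so part of their reads cannot be assigned with certainty.

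**Figure D3:**
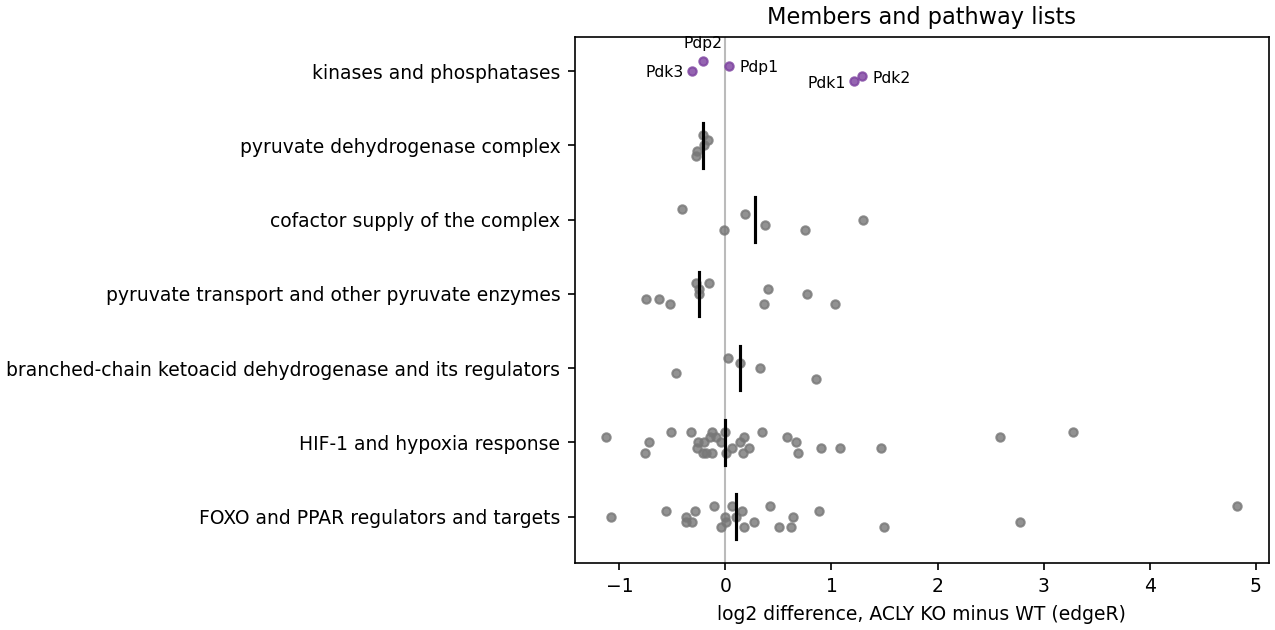
Log2 difference, ACLY KO minus WT, from the edgeR fit, 1 point per gene, for the 5 family members (purple, labelled) and for 6 pathway lists (grey, with the median of the list as a black bar). Pdk1 and Pdk2 lie at 1.22 and 1.29, the 5 genes of the complex sit between -0.28 and -0.16, and the medians of the lists lie between -0.25 and 0.28.

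The genes whose profile over the 7 libraries was most like that of Pdk1 were sought among 8409 genes with a symbol and a mean log2 CPM of at least 3. By Pearson r of log2 CPM they were Sirt4 (r = 0.996), a mitochondrial sirtuin, Ssbp2 (0.992), a single-stranded DNA binding protein, Abhd11 (0.990), a mitochondrial hydrolase, Gnl2 (0.987), a nucleolar GTPase, and Cry2 (0.985), a circadian repressor. Sirt4 was at 8.68, 7.94, 9.12 and 7.17 CPM in WT1 to WT4 and at 10.1, 19.9 and 13.4 CPM in KO1 to KO3. Ssbp2 was at 25.7, 23.4, 24.3 and 20.3 CPM in WT and at 34.4, 87.3 and 55.9 CPM in KO. Both had Pdk1's order within KO, and Sirt4, Ssbp2, Abhd11 and Gnl2 were above all WT libraries in every KO library, while Cry2 was in 2 of 3. These genes were chosen for likeness to Pdk1, itself picked for being higher in KO. Their separation comes with that choice and adds no support. Over all genes, 9.46% had every KO library above every WT library. The points share libraries, depth and genotype, and by rank correlation 9 genes tie with Pdk1 at 1, among them 2 of the 5, Ssbp2 and Abhd11. Ssbp2 shares exon bases with another measured gene.

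For the other members the same measure named Rere (0.994), Eif2ak4 (0.992) and Dnajb2 (0.991) for Pdk2, which like Pdk2 were lowest in WT4, above all WT libraries in every KO library and highest in KO1. Cby1 (0.990), Helq (0.987) and Ywhae (0.987) were nearest to Pdk3, and like it they were highest in WT4, Ywhae with 617 CPM there against 264 to 293 CPM in WT1 to WT3. Hs2st1 (0.973), Tmem87b (0.973) and Clock (0.970) were nearest to Pdp1, and all 3 were lowest in WT4. Mxi1 (0.980), Osbpl8 (0.977) and Pgghg (0.972) were nearest to Pdp2, with KO1 the highest library for each and KO2 and KO3 the lowest. All these genes were chosen for likeness to a member, so the traits they share with it come with the choice. The 5 members thus had different profiles, Pdk1 with its peak in KO2, Pdk2 and Pdp2 in KO1, Pdk3 in WT4 and Pdp1 in WT2.

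**Figure D4:**
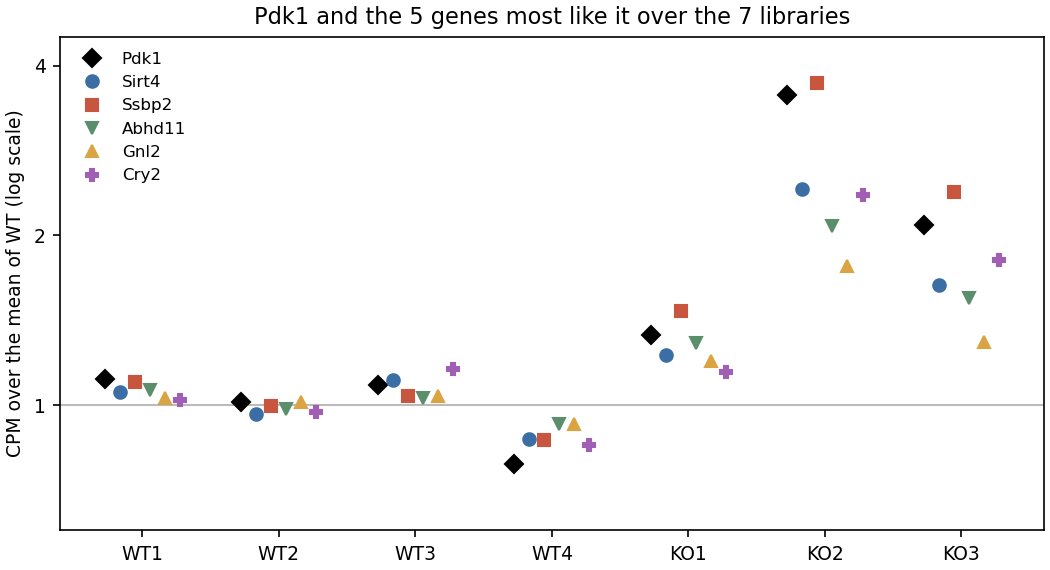
CPM over the WT mean (log axis, base 2) in each library for Pdk1 (black diamonds) and the 5 genes most like it. In KO1, KO2 and KO3 Pdk1 stands at 1.33, 3.55 and 2.09 times the WT mean, and all 6 genes are highest in KO2 and lowest in WT4.

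Across 16 other ways of processing the counts, the log2 difference of Pdk1 ran from 0.77 to 1.495. Pdk1 was picked for being higher in KO and its groups did not overlap. Its constant sign is therefore a description and adds no support. That of Pdk2 ran from 0.89 to 1.44, with adjusted p-values from 0.00729 to 0.308. Pdk3 ran from -0.42 to -0.02 (adjusted p 0.543 to 0.965), Pdp1 from -0.19 to 0.22 and Pdp2 from -0.80 to 0.04 (adjusted p 0.0754 to 0.993).

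**Figure D5:**
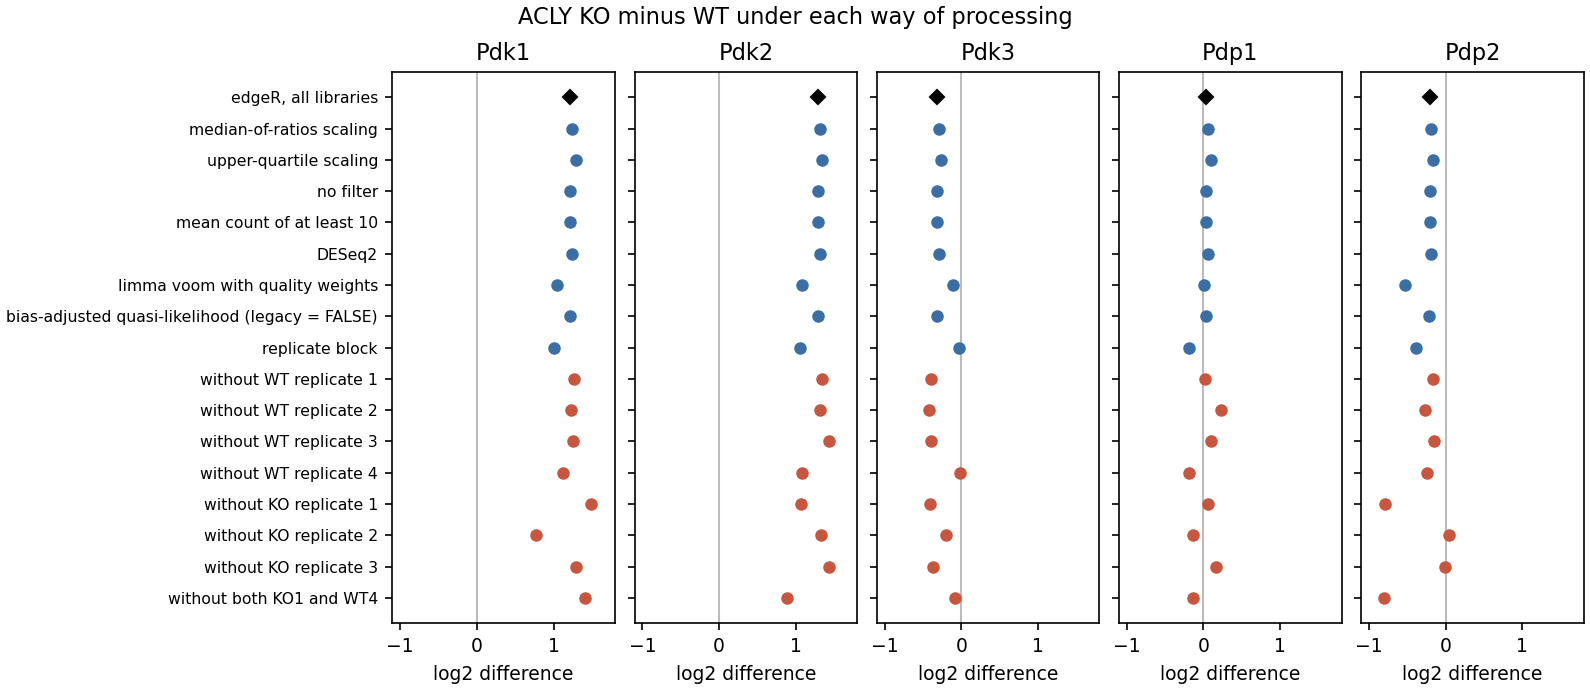
Log2 difference, ACLY KO minus WT, of each measured member under each way of processing, with the edgeR fit on all libraries as a black diamond, fits without some libraries in red and other tools, scalings or terms in blue. Pdk1, which was picked for being higher in KO, and Pdk2 lie to the right of 0 (0.77 to 1.495 and 0.89 to 1.44). Pdp1 and Pdp2 fall on either side of 0.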

How the data were processed

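RNA sequencing of total RNA from 3 ACLY KO and 4 WT samples was used. Per the submitters' processing notes, Trim Galore 0.6.0 served for trimming, STAR 2.7.8 for alignment (genome mm10), and DESeq2 for the test between groups. How reads were counted, with which annotation, strand setting and filter, is not given in the sources used here. Raw counts of 16156 genes were deposited by the authors, as was their log2 CPM, which supplied the symbols. That log2 CPM equalled values recomputed here from the counts (edgeR, TMM scaling, prior count 2) within 4.99e-09.

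CPM values are these counts over the TMM-scaled library totals. In the shallowest library (37473484 counts) 3 counts equal 0.0801 CPM before that scaling. Coordinates, exons and lengths came from GENCODE M21 (mm10), which held 16136 of the identifiers. Promoters came from RefSeq. The comparison of KO with WT used the quasi-likelihood test of edgeR 4.0.16 in R 4.3.3, with no term but genotype and p-values adjusted by Benjamini-Hochberg over all genes (threshold 0.05); filterByExpr removed 0 genes. Alternatives were DESeq2 1.42.0, limma 3.58.1 (voom with quality weights), the bias-adjusted quasi-likelihood fit, other scalings and filters, a replicate block, and leaving out libraries. The fit was also run on simulated counts, and the outcome is not reported here. Those counts were drawn independently for each gene and library, without shifts like those of KO1 and WT4. No 2 replicates of a group agreed within sampling noise. Members and lists were chosen with earlier results of these data known. The rule for named genes took the members, Acly, Pdpr, the 2 genes with the smallest p in each list, the 2 highest genes of each marker list, and the 5 genes most like Pdk1 and 3 most like each other member; genes outside it were chosen after their values were seen. Some genes this rule names are not reported here.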

Additional observations from a re-analysis of the deposited data

Results flagged for a closer look

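Dixon's test of the 4 WT libraries at its 95% critical value was applied to 13 values of the family and marked 4, all in WT4; chance marks about 1 in 20 such groups. Pdk3 was at 82.3 CPM in WT4, where WT1 to WT3 lay at 40.7 to 44.7 CPM. In the same library the share of Pdk3 in the kinase transcripts was 72.6%, the share of Pdk1 was 25.1% and the ratio of Pdk1 to Pdk3 was 0.345. These 4 values hold the same Pdk3 level and are related.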

How the results depend on the processing

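Of 360 values recomputed, 317 kept their direction and side of the threshold or moved within the spread. Genes called higher and lower in KO, 0 and 0 with edgeR, numbered 1036 and 525 with DESeq2, 860 and 272 with limma voom, 497 and 77 with the bias-adjusted fit, 864 and 668 without both KO1 and WT4, and 0 to 142 and 0 to 48 when 1 library was left out. Leaving out WT4 gave 108 and 21, KO1 111 and 48, KO2 118 and 2, and KO3 142 and 47. Pdk2 passed with DESeq2 (1.31) and limma voom (1.09). Pdp1 turned to -0.19 with the replicate block and to -0.14 without both KO1 and WT4. No other library shares the replicate number of WT4, so the block takes WT4 out of the genotype comparison. When 1 library was left out, Pdp1 ran from -0.19 to 0.22, below 0 without WT4 or KO2. Pdp2 then ran from -0.79 to 0.038, above 0 only without KO2. Genes called in the lists, 0 with edgeR, were 1 pyruvate, 4 HIF-1 and 5 FOXO and PPAR genes with DESeq2. They were 2 pyruvate, 1 branched-chain, 2 HIF-1 and 3 FOXO and PPAR genes with limma voom, 2 FOXO and PPAR genes with the bias-adjusted fit, and 1 pyruvate, 5 HIF-1 and 4 FOXO and PPAR genes without both KO1 and WT4. Leaving out 1 library gave 0 to 1 HIF-1 genes and 0 to 2 FOXO and PPAR genes. With the longest transcript as length the kinase to phosphatase ratio of KO was 12.6, and with no length scaling the share of Pdk1 was 79.4% in KO and 65.3% in WT. By rank correlation 9 genes tied at 1 with Pdk1, among them 2 of its 5 most like genes; a list of 5 taken from that tie, in no meaningful order, held 1 of them. The cause of these changes was not tested.

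Deviations from the group mean in KO and WT replicates with the same number had r = -0.11, -0.05 and 0.14 for numbers 1, 2 and 3. Those with different numbers had r from -0.09 to 0.10. So few values cannot tell whether the numbers pair libraries. The replicate block gave 1.0 for Pdk1 and 1.06 for Pdk2 and changed no call. The WT and KO groups hold 4 and 3 libraries, the KO libraries are the shallowest, and transcripts of other cells differ between the KO libraries. For Pdk2, 187 counts in WT4 were the fewest behind any value of a member.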
